A study of Mus musculus with 8 samples.

Results

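Keratins are the intermediate filament proteins of epithelial cells. All genes with a keratin symbol (Krt, a number and at most 1 letter, without the keratin-associated proteins) were taken from the array, which gave 54 keratin genes of 22883 named genes with a probe. The arrays measured RNA of TEC100.4, an immortalized mouse thymic epithelial line that its labels trace to the thymic cortex. In the δ line doxycycline switches on a mutant of the δ isoform of TFII-I, and in the β line a mutant of the β isoform. TFII-I is a transcription factor encoded by Gtf2i. The 4 groups were the δ line with doxycycline for 24 h, the β line with doxycycline for 24 h, the δ line without it and the β line without it, with 2 one-colour arrays each. The genotype labels call the doxycycline arrays overexpressors of the mutant, and attach the wild-type protein to the untreated arrays of the same mutant lines. Each isoform is represented by 1 line, so the isoform, the derivation of the line and the column of the slide cannot be told apart. The treated arrays lay in 1 row of the slide and the untreated arrays in the other, so treatment and slide row cannot be told apart either. No line without an inducible mutant was on the arrays, so doxycycline itself and the induced mutant cannot be told apart. The labels do not say whether replicate arrays stand for separate cultures, and p-values therefore reflect a spread between 2 arrays that may be technical.

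A keratin filament is built from obligate pairs of an acidic type I and a basic type II keratin. Simple epithelia make mainly Krt8 with Krt18 and Krt19, and the basal layer of stratified epithelia makes Krt5 with Krt14. In the mouse thymus the first pair marks cortical and the second mainly medullary epithelium, which is why these genes are used to tell the layers apart. Krt20 is known from intestinal villus cells, urothelial umbrella cells and Merkel cells. TFII-I is known to bind initiator elements and E-boxes of promoters.

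Of the 54 keratins, 40 had a probe well above background on all 8 arrays, 10 on 1 to 7 arrays and 4 (Krt12, Krt25, Krt26 and Krt90) on no array. Genes entered the test when at least 1 group had its 2 arrays both well above background for the brightest probe, and 46 keratins did so among 19023 genes. The 8 keratins that were not tested were Krt1 and Krt4 of stratified epithelia, Krt12 of the cornea, Krt25, Krt26 and Krt73 of the hair root sheath, and Krt39 and Krt90. A count by group gave 46 keratins detected on both arrays of the treated δ line, 45 in the treated β line, 40 in the untreated δ line and 43 in the untreated β line. More probes of any kind were well above background on treated arrays too, with 43345 to 45080 on treated and 39512 to 40698 on untreated arrays. All levels below are log2 intensities relative to the 75th percentile of the array, so a value of 0 lies at that percentile. Levels are compared between arrays for the same probe and never between genes.

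The marker check gave a mixed picture of the labelled cell type. Of 10 cortical thymic markers, 6 were well above background on all arrays, but Psmb11, the thymoproteasome subunit that defines cortical epithelium, and Cd83 were so on none. Of 8 medullary markers, 5 were detected on all arrays, and Cldn3 and Fezf2 on none. Epcam, a general epithelial adhesion protein, was well above background on 1 array only, the first untreated δ array. Of 6 fibroblast markers 5 were detected on all arrays, with a summed level of 9.0 to 9.07 on the δ arrays and 8.88 to 9.21 on the β arrays, and so were 5 of 7 thymocyte markers and 2 of 4 macrophage markers, with Rag1, Ptprc and Adgre1 on none. With doxycycline the summed macrophage level was 2.47 to 2.61 on the δ arrays and 3.18 to 3.35 on the β arrays, and the thymocyte level 4.20 to 4.33 (δ) and 4.48 to 5.07 (β). Without it the 2 levels were 2.51 to 2.78 (δ) and 2.64 to 2.68 (β), and 4.13 to 4.32 (δ) and 4.31 to 4.43 (β). The part of these markers in the line differences was not tested. The first untreated δ array stands apart: 113 of its 1008 tiles of 8 by 8 spots deviated from the other arrays, and its correlation with its partner was 0.965, against 0.994 to 0.997 in the other 3 groups. Gtf2i itself showed a doxycycline difference of 0.09 in the δ line and 0.11 in the β line (limma, adjusted p = 0.720 and 0.730), on a probe whose response to the transgene is unknown. The lines lay apart for Gtf2i. Without doxycycline it stood at 5.28 and 5.07 on the δ arrays and at 4.39 and 4.63 on the β arrays. With doxycycline it stood at 5.28 and 5.26 (δ) and at 4.58 and 4.65 (β). The part of this gap in the keratin differences was not tested.

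The largest keratin differences lay between the lines, with or without doxycycline. The δ line had far less RNA for Krt14, Krt8, Krt19 and Krt42 than the β line, and more for Krt15 and Krt23. In bulk RNA, fewer cells of a type and less RNA per cell cannot be told apart. Without doxycycline, 8 of 46 keratins passed the threshold of an adjusted p under 0.05 (17.4%), against 13.2% of all genes tested. They were 2 higher in the δ line (4.35%, against 7.84% of all genes) and 6 lower (13.0%, against 5.33%). With doxycycline, 10 passed (21.7%), against 15.3% of all genes, 4 of them higher (8.70%, against 9.83%) and 6 lower (13.0%, against 5.49%). The share of keratins lower in the δ line was thus above that of all genes in both states, and the share higher was not. The 7 keratins that passed in both comparisons, which use different arrays but 1 shared estimate of the spread, were 87.5% of the first list and 70% of the second. The same shares over all called genes were not computed, so this overlap is not read as particular to keratins. Without the first untreated δ array, its group keeps 1 array, and call counts are not read there. The untreated keratin median was then -0.06, against -0.01 over all genes.

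Krt14, the type I keratin of basal cells, showed the widest gap. Without doxycycline its level was 1.35 and 1.17 on the δ arrays and 4.87 and 5.14 on the β arrays. With doxycycline it was 1.27 and 1.09 on the δ arrays and 4.97 and 4.74 on the β arrays. The lines did not overlap, and each line kept its level with treatment to within 0.16 on average. The δ line was 13.4-fold lower without doxycycline (log2 fold change -3.75 ± 0.15, SE, limma adjusted p = 6.16e-05) and 12.7-fold lower with it (-3.67 ± 0.15, adjusted p = 7.57e-05). The Krt14 spot lay in a deviant tile of the first untreated δ array, where spots were 0.33 brighter in the log2 scale than on the other arrays.

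Krt5, the type II partner of Krt14 in basal cells, did not pass the threshold in either state. Its level was -0.39 and -0.41 on the untreated δ arrays and -0.13 and -0.52 on the untreated β arrays. The treated arrays gave -0.42 and -1.24 in the δ line and -0.30 and -0.41 in the β line. The groups overlapped without treatment, and the low treated δ value lay on 1 array alone. The δ minus β difference was -0.08 without and -0.48 with doxycycline (limma, adjusted p = 0.883 and 0.290). The Krt5 spot lay in a deviant tile on the first untreated δ array and on the second treated δ array, with local shifts of 0.37 and -0.39.

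Krt15, the other type I basal keratin and a marker of hair follicle bulge cells, went the other way. It stood at -1.0 and -0.80 on the untreated δ arrays and at -2.87 and -2.97 on the untreated β arrays. With doxycycline the values were -0.72 and -0.74 in the δ line and -2.43 and -2.37 in the β line. Krt15 was 4.06-fold higher in the δ line without doxycycline (log2 fold change 2.02 ± 0.10, limma adjusted p = 0.000163) and 3.19-fold higher with it (1.67 ± 0.10, adjusted p = 0.000365). Of the 3 basal keratins measured, 1 was therefore higher, 1 lower and 1 not past the threshold in each comparison.

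**Figure D1:**
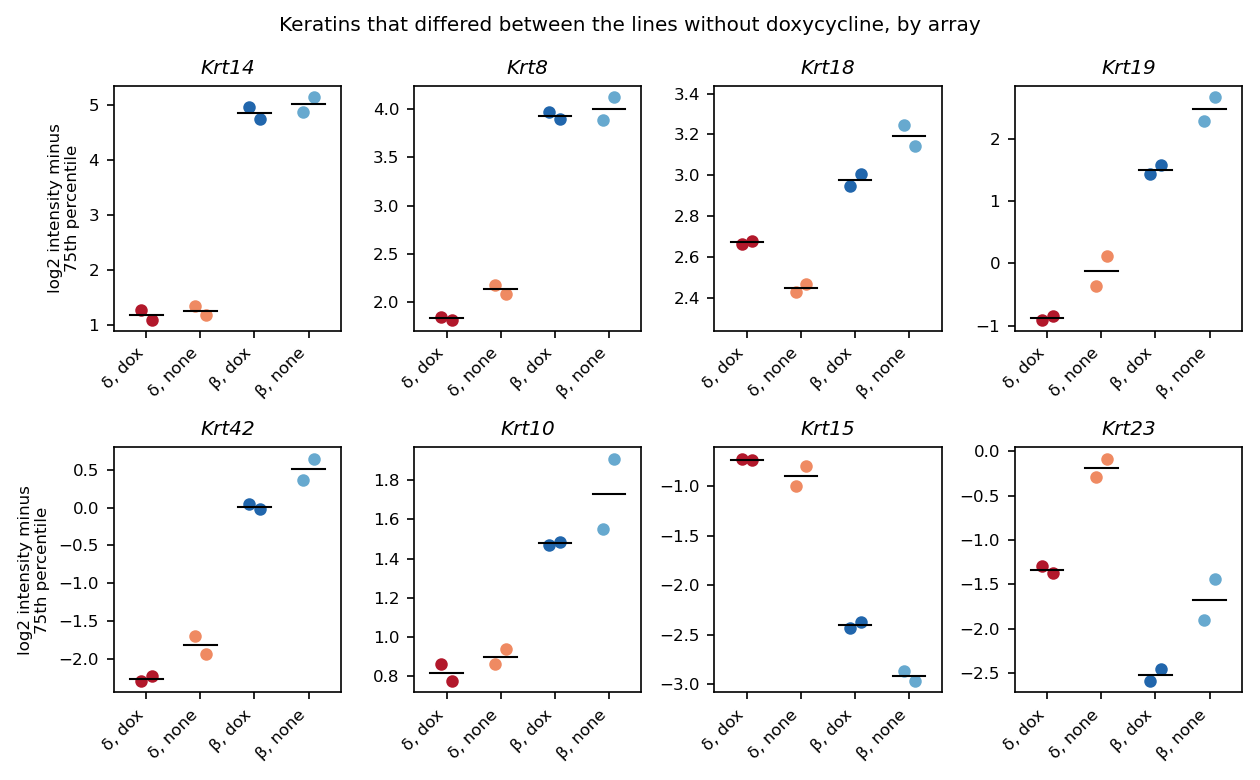
Level of the 8 keratins that differed between the lines without doxycycline, as log2 intensity minus the 75th percentile of the array, with 1 point per array and a bar at the mean of the 2 arrays in each of the 4 groups (dox, doxycycline; none, untreated). The δ arrays lie below the β arrays for Krt14, Krt8, Krt18, Krt19, Krt42 and Krt10, and above them for Krt15; for Krt23 they lie above at the same treatment.

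Among the simple epithelial keratins, Krt8 is the type II member that pairs with Krt18 and Krt19. Krt8 stood at 2.17 and 2.08 on the untreated δ arrays and at 3.89 and 4.13 on the untreated β arrays. On the treated arrays it was 1.84 and 1.81 in the δ line and 3.97 and 3.90 in the β line. Krt8 was 3.69-fold lower in the δ line without doxycycline (log2 fold change -1.88 ± 0.11, limma adjusted p = 0.000261) and 4.31-fold lower with it (-2.11 ± 0.11, adjusted p = 0.000193).

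Krt18, the usual type I partner of Krt8, differed much less. Its level was 2.43 and 2.47 on the untreated δ arrays and 3.25 and 3.14 on the untreated β arrays. After doxycycline the values were 2.66 and 2.68 in the δ line and 2.95 and 3.0 in the β line. The lines did not overlap in either state. The δ line was 1.68-fold lower without doxycycline (log2 fold change -0.75 ± 0.09, limma adjusted p = 0.00358), while the difference of -0.30 with it did not pass (adjusted p = 0.0677). That the 2 differences themselves differ was not shown: the interaction of 0.44 had an adjusted p of 0.645.

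Krt19, the smallest keratin and a type I partner of Krt8 with almost no tail domain, was lower in the δ line. It stood at -0.36 and 0.11 on the untreated δ arrays and at 2.30 and 2.68 on the untreated β arrays. The treated arrays gave -0.91 and -0.84 in the δ line and 1.43 and 1.58 in the β line. Krt19 was 6.12-fold lower in the δ line without doxycycline (log2 fold change -2.61 ± 0.20, limma adjusted p = 0.000648) and 5.20-fold lower with it (-2.38, adjusted p = 0.00107).

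Krt23, a type I keratin of simple epithelia, was higher in the δ line. Its level was -0.29 and -0.08 on the untreated δ arrays and -1.90 and -1.44 on the untreated β arrays. In treated cells it was -1.30 and -1.37 in the δ line and -2.60 and -2.46 in the β line. The δ line was 2.81-fold higher without doxycycline (log2 fold change 1.49 ± 0.17, limma adjusted p = 0.00332) and 2.28-fold higher with it (1.19 ± 0.17, adjusted p = 0.00796). The treated call was lost when the first treated β array or either treated δ array was left out (1.12 to 1.23, adjusted p 0.0541 to 0.0728).

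Krt7, a type II keratin of simple ducts and glands, had δ minus β differences of 0.00 in both states, and its spot lay in a deviant tile of the first untreated δ array, shifted there by -0.52. Its untreated levels were -1.08 and -0.24 on the δ arrays and -0.70 and -0.62 on the β arrays. The untreated 0.00 thus averages 2 unlike δ arrays and shows no likeness of the lines. Krt80, a type II keratin found in many epithelia, was measured by 2 probes that disagreed. Its brighter probe gave differences of 0.11 without and -0.34 with doxycycline, neither past the threshold. Its dimmer probe stood at -1.29 and -1.27 on the untreated δ arrays and at -0.05 and 0.15 on the untreated β arrays. It gave differences of -1.33 ± 0.11 and -1.54 ± 0.11 (limma over 44321 probes), both past the threshold, and the brighter probe was the one that stood for the gene. Among the 7 keratins with 2 probes, Krt13 and Krt16 also had both tested, and none of those 4 probes passed in either line comparison.

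Krt42, a type I keratin of the mouse nail that lies beside Krt17, was another keratin of the δ line's low group. It stood at -1.70 and -1.94 on the untreated δ arrays and at 0.37 and 0.65 on the untreated β arrays. With doxycycline it was -2.30 and -2.23 in the δ line and 0.04 and -0.02 in the β line. The δ line was 5.02-fold lower without doxycycline (log2 fold change -2.33 ± 0.13, limma adjusted p = 0.000244) and 4.85-fold lower with it (-2.28, adjusted p = 0.000294). Krt10, the type I keratin of suprabasal epidermis, stood at 0.86 and 0.93 on the untreated δ arrays and at 1.55 and 1.91 on the untreated β arrays. With doxycycline it was 0.86 and 0.77 in the δ line and 1.47 and 1.49 in the β line. The lines did not overlap, and the difference was smaller than for Krt42: 1.78-fold lower without doxycycline (limma adjusted p = 0.0120) and 1.58-fold lower with it (adjusted p = 0.0254). The treated Krt10 call was lost without any 1 of the 4 treated arrays (adjusted p 0.101 to 0.159).

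With doxycycline 3 further keratins passed, all at low levels. Krt20 was 1.53-fold higher in the δ line (log2 fold change 0.62 ± 0.13, limma adjusted p = 0.0313), and is described with the doxycycline results. Krt72, a type II keratin of the inner root sheath of the hair, stood at -4.33 and -4.35 on the treated δ arrays and at -3.73 and -3.79 on the treated β arrays (1.50-fold lower, adjusted p = 0.0268). Krt87, a hair keratin, was well above background only on the 2 treated δ arrays, so the 0.88 of the fit is no measured fold. On the deposited background-corrected values the bound was 1.20-fold higher in the δ line. With normexp the log2 value was 0.065, below that bound, so the bound depends on the background correction. The bound sets the mean of the bright group against the lowest signal well above background on each dim array. Krt87 entered the test only through the group where it was high, so its call supports nothing. Among the 45 keratins detected on all 4 treated arrays, 9 passed, 3 higher and 6 lower. The share of all genes under that filter was not computed. With only probes well above background on all 8 arrays, 9 of 40 keratins and 3252 of 16788 genes passed with doxycycline. The calls of Krt20 and Krt72 were lost without certain single arrays: for Krt20 the first treated β or either treated δ array (adjusted p 0.125 to 0.201), and for Krt72 any treated array (0.0915 to 0.160). With normexp background correction the log2 values were 0.30 for Krt20 (adjusted p = 0.129), -0.43 for Krt72 (0.131) and 0.065 for Krt87, and Krt72 also lost its call with quantile normalization, median centring and an intensity trend (0.0609 to 0.0759).

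The wound keratins Krt6a, Krt6b, Krt16 and Krt17, which stratified epithelia make during repair and hyperproliferation, gave no call between the lines. Krt6a stood at 2.29 and 2.27 on the untreated δ arrays and at 1.67 and 1.97 on the untreated β arrays, a difference of 0.46 (limma, adjusted p = 0.0671). With doxycycline it was 2.16 and 2.32 in the δ line and 2.41 and 2.45 in the β line. All 4 wound keratins had differences below 0 with doxycycline, between -0.35 and -0.12. Of the 14 hair shaft keratins tested, only Krt87 passed in either line comparison, and of the 6 root sheath keratins only Krt72. None of the 4 mucosal and corneal keratins tested passed in either, with 1 lower at an unadjusted p under 0.05 without doxycycline and 0 with it. The share of all genes at that unadjusted p is not given here.

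The keratins that did not pass ranged from -1.31 (Krt76) to 0.46 (Krt6a) without doxycycline and from -0.57 (Krt28) to 0.15 (Krt35) with it. The Krt76 value rests largely on the first untreated δ array, at -6.13 and not well above background, against -4.13 on its partner. With doxycycline 38 of the 46 keratins had a value below 0, with a median of -0.22, against a median of -0.01 over all genes tested, of which 49.3% were above 0. Without doxycycline the medians were -0.02 for keratins and 0.02 for all genes. The 2 arrays of each line did not overlap for 34 keratins (73.9%) with doxycycline, where 68.4% of all genes did not, and for 18 (39.1%) without it, where 53% did not. The treated keratin median was -0.14 with quantile normalization and with median centring, where the medians of all genes were 0.02 and 0.07.

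**Figure D2:**
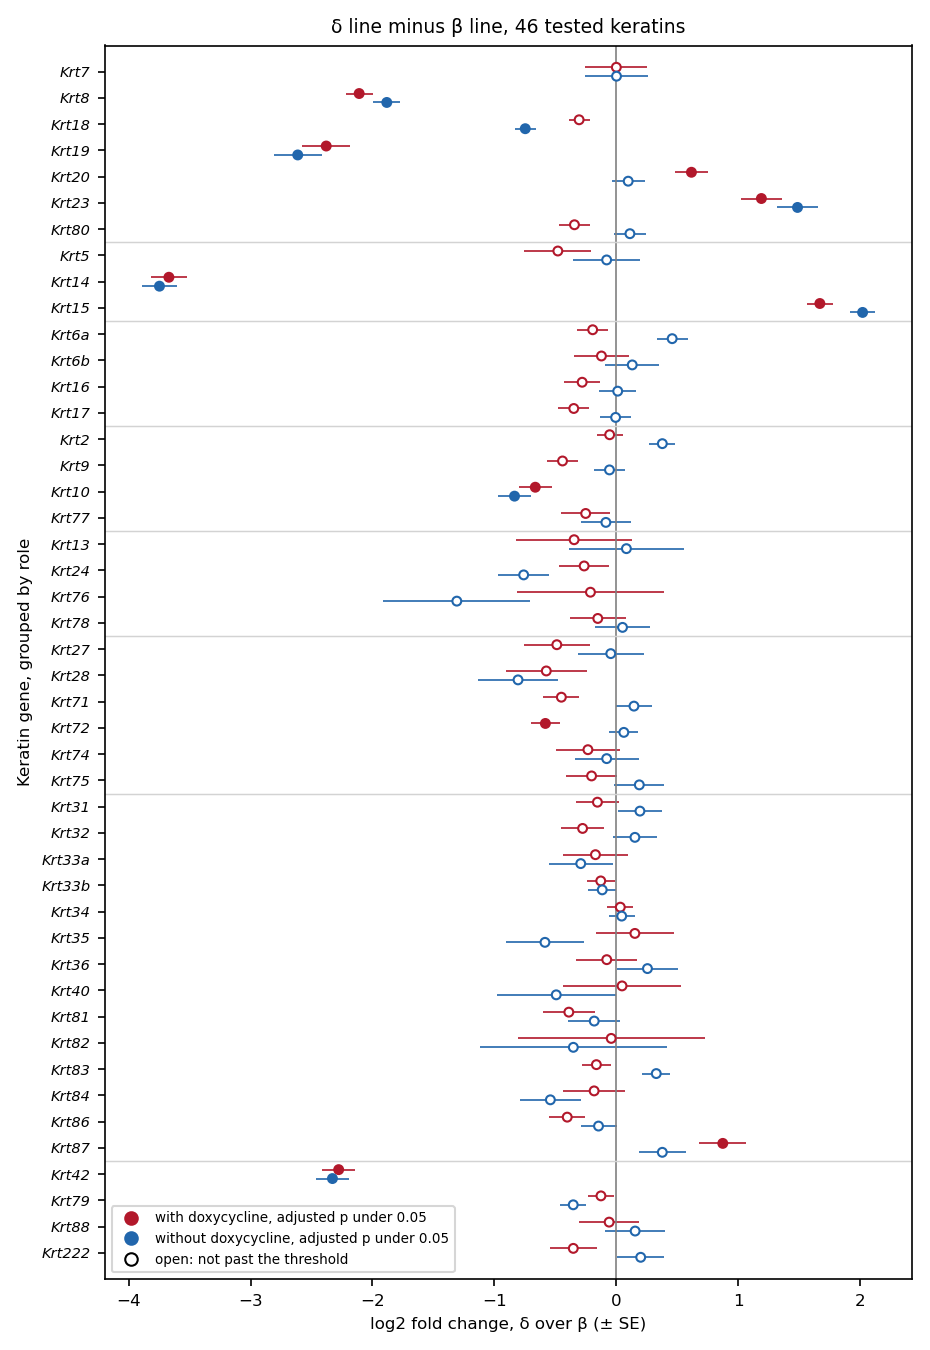
Log2 fold change of the δ line over the β line for the 46 tested keratins, grouped by role from simple epithelial keratins at the top, with doxycycline and without it; bars are standard errors of the limma fit and filled points have an adjusted p under 0.05. Krt14, Krt19, Krt42 and Krt8 lie far to the left and Krt15 and Krt23 to the right in both states.

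Keratin genes sit in 2 clusters, type I on mouse chromosome 11 and type II with the type I gene Krt18 on chromosome 15. The type I cluster held 23 of the tested keratins, of which 6 passed without doxycycline and 7 with it. The type II cluster with Krt18 held 23, of which 2 and 3 passed. These shares lie beside the 13.2% and 15.3% of all genes called. Some neighbours shared a direction, as Krt8 and Krt18 did without doxycycline, and others did not. Krt15, which was higher in the δ line, lies next to Krt19, which was lower, and Krt16 and Krt17, with untreated differences of 0.01 and -0.00, lie between the lower Krt14 and Krt42. Krt14, Krt16, Krt17 and Krt42 are close relatives, as are Krt6a and Krt6b, and cross-hybridisation between their probes was not tested.

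**Figure D3:**
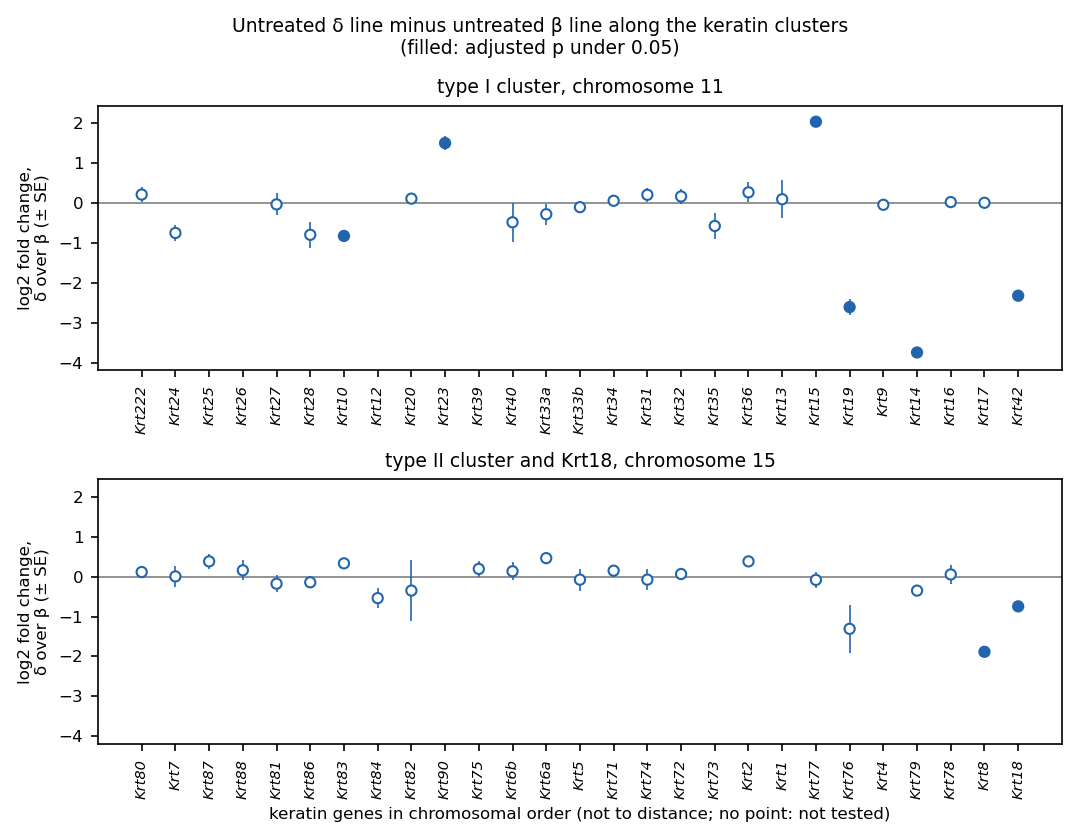
Log2 fold change of the untreated δ line over the untreated β line for keratins in chromosomal order (not to distance), in the type I cluster of chromosome 11 and in the type II cluster of chromosome 15 with Krt18; bars are standard errors, filled points have an adjusted p under 0.05, and genes without a point were not tested. Krt15 at 2.02 stands next to Krt19 at -2.61, and Krt8 at -1.88 next to Krt18 at -0.75.

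Doxycycline changed few keratins. In the δ line 1 of 46 passed (2.17%), against 0.0736% of all genes tested, and that gene was Krt20. In the β line no keratin passed, against 0.247% of all genes, although 12 had an unadjusted p under 0.05 (18.2% of all genes did), and the lowest adjusted p was the 0.0565 of Krt20. Without the first untreated δ array, which leaves 1 array in its group, the δ line median was 0.01 for keratins and 0.04 for all genes. Over the mean of both lines 3 passed (6.52%), against 3.13% of all genes. Krt20 was higher, as were 1.52% of all genes, and Krt23 and Krt19 were lower, as were 1.6%. The lines and the mean share their arrays, so these counts are not separate evidence.

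Krt20, the type I keratin of differentiated intestinal, urothelial and Merkel cells, rose with doxycycline in the δ line. It stood at -2.69 and -2.82 on the treated δ arrays and at -4.31 and -4.15 on the untreated ones. In the β line it stood at -3.52 and -3.23 with doxycycline and at -4.26 and -4.40 without it. Treated and untreated arrays did not overlap in either line, and the untreated lines lay at like levels, with a δ minus β difference of 0.10 (limma, adjusted p = 0.680). The fold was 2.78 in the δ line (log2 fold change 1.48 ± 0.13, limma adjusted p = 0.0397), 1.94 in the β line (0.96 ± 0.13, adjusted p = 0.0565) and 2.32 over the mean of both (1.22 ± 0.09, adjusted p = 0.00939). The δ effect exceeded the β effect by 0.52, which did not pass (adjusted p = 0.645), so a difference between the lines was not shown. The δ call was lost without any 1 array except the second untreated δ array (1.40 to 1.54, adjusted p 0.0514 to 0.417), and the log2 value was 0.89 with normexp background correction (adjusted p = 0.0707). The mean over both lines lost its call without the second treated β array or either treated δ array (1.14 to 1.25, adjusted p 0.0556 to 0.0790).

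The 3 cell types in which Krt20 is best known were checked by their other markers. Of 7 intestinal villus markers 4 were well above background on all arrays, and Vil1 and Cdh17, which define that cell type, on none. The summed level of that list, Krt20 included, was -0.45 to -0.36 on the treated and -1.29 to -0.63 on the untreated δ arrays, and -0.50 to -0.38 on the treated and -0.59 to -0.31 on the untreated β arrays. Krt20 was the only villus marker past the threshold for doxycycline in either line or their mean. Of 6 urothelial markers and of 6 Merkel cell markers, Krt20 was again the only one that passed for doxycycline. The summed urothelial level was 6.11 to 6.12 on the treated and 6.05 to 6.23 on the untreated δ arrays, and the summed Merkel cell level -0.68 to -0.48 on the treated and -1.05 to -0.97 on the untreated δ arrays, Krt20 included in both. In the β line the urothelial level was 6.43 to 6.44 on the treated and 6.17 to 6.48 on the untreated arrays, and the Merkel cell level -1.70 to -1.28 on the treated and -1.99 to -1.47 on the untreated ones, so that treated and untreated β arrays overlapped in both. Of the 6 urothelial markers 4 were well above background on all 8 arrays, Krt20 and the plaque protein Upk1b among them, and 0 on no array. Of the 6 Merkel cell markers 3 were so on all arrays, Krt20 among them, and 0 on no array. The Merkel cell factors Atoh1 and Isl1 were each well above background on 1 array.

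Because both Krt20 and Krt23 passed for the mean doxycycline effect in opposite directions, and both lie in the type I cluster, their promoters are shown side by side, with that of Krt8 as a gene that differed between the lines only. The sequences are RefSeq, GRCm38.p6, the 250 bases before the annotated start, on the minus strand in each case, written 5′ to 3′. They lie at chr11:99438154-99438403 for Krt20, chr11:99493121-99493370 for Krt23 and chr15:102004343-102004592 for Krt8. Capitals mark E-boxes (CANNTG, which reads the same on both strands) and the TATA sequence TATAAA, searched on both strands.
Krt20: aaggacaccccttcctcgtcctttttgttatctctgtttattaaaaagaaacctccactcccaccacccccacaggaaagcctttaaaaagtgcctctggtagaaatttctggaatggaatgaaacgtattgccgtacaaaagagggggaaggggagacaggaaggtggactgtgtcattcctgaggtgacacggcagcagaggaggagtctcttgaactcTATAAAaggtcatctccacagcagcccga
Krt23: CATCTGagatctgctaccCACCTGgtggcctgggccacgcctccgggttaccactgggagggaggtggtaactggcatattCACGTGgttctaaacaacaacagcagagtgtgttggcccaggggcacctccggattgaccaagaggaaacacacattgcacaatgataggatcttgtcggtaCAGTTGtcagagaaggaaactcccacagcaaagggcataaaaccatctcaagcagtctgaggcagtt
Krt8: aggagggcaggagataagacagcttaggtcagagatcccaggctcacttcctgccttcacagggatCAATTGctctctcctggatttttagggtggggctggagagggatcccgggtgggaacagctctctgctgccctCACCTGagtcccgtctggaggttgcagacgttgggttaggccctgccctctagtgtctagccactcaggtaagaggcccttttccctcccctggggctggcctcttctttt
The Krt20 window holds a TATA sequence at position -29 from the start and no E-box. The Krt23 window holds 4 E-boxes, the nearest at -67, and no TATA sequence. The Krt8 window holds 2 E-boxes, the nearest at -111. The window of Krt42, which also differed between the lines, holds neither an E-box nor a TATA sequence. Over all 32851 promoters, 66.2% of such windows hold at least 1 E-box and 12.4% a TATA sequence. An E-box is thus common in such windows and a TATA sequence less so. The share of windows with 4 E-boxes was not computed. Of the 54 keratins 36 had an entry. These letters are a description and no evidence of binding.

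Krt23 and Krt19 passed for the mean of both lines only. Krt23 stood at -1.30 and -1.37 on treated δ arrays and at -0.29 and -0.08 on untreated ones, and at -2.60 and -2.46 on treated β arrays and at -1.90 and -1.44 on untreated ones. Treated and untreated arrays did not overlap within a line. The log2 fold change was -1.15 in the δ line and -0.85 in the β line (limma, adjusted p = 0.0942 and 0.0882), and -1.0 ± 0.12 over both (2.00-fold lower, adjusted p = 0.0219). Krt19 stood at -0.91 and -0.84 on treated δ arrays and at -0.36 and 0.11 on untreated ones, and at 1.43 and 1.58 on treated β arrays and at 2.30 and 2.68 on untreated ones. Its log2 fold change was -0.75 in the δ line and -0.98 in the β line (adjusted p = 0.232 and 0.0882), and -0.87 ± 0.14 over both (1.82-fold lower, adjusted p = 0.0380). Both mean calls were lost without any 1 treated array (adjusted p 0.0791 to 0.139 for Krt23), and that of Krt19 also without either untreated β array (0.0668 to 0.183 over these 6).

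**Figure D4:**
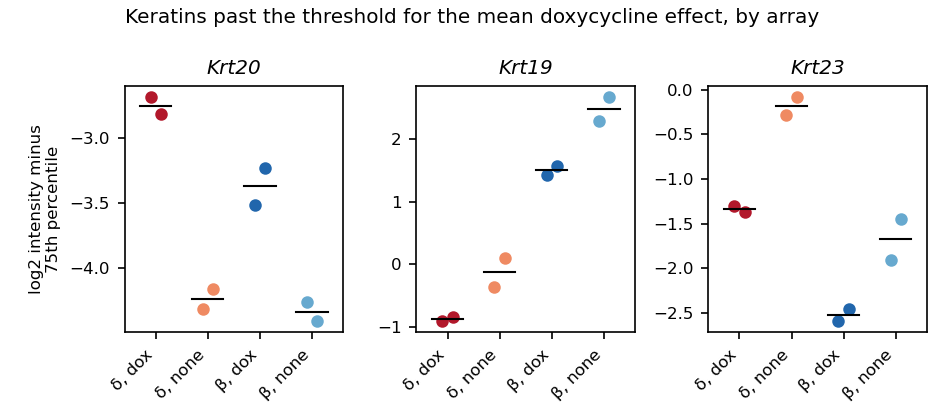
Level of the 3 keratins that passed for the mean doxycycline effect, as log2 intensity minus the 75th percentile of the array, with 1 point per array and a bar at the mean of 2 arrays (dox, doxycycline; none, untreated). Krt20 lies higher on treated arrays in both lines, and Krt19 and Krt23 lower.

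The keratins that define the thymic layers gave no call with doxycycline. In the δ line the log2 differences were -0.30 for Krt8 (limma, adjusted p = 0.309), 0.22 for Krt18 (0.318), -0.08 for Krt14 and -0.43 for Krt5. In the β line they were -0.07 for Krt8, -0.22 for Krt18 (0.259), -0.16 for Krt14 and -0.03 for Krt5. Krt18 had treated and untreated arrays apart in both lines, in opposite directions. The treated δ arrays lay above the untreated ones, and the treated β arrays below the untreated ones. The interaction of 0.44 had an adjusted p of 0.645.

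Among the wound keratins, all 4 had doxycycline differences below 0 in the δ line (median -0.15). In the β line all 4 lay above 0 (median 0.17), and none passed in either line. Of all 46 keratins tested, 29 lay below 0 in the δ line and 28 above 0 in the β line. Of all genes, 50.4% lay above 0 in the δ line and 55.1% in the β line. In the β line 1 had an unadjusted p under 0.05, as did 18.2% of all genes. In the δ line 0 did, and the share of all genes there is not given here. Krt6a, for example, stood at 2.16 and 2.32 on treated and at 2.29 and 2.27 on untreated δ arrays, and at 2.41 and 2.45 on treated and at 1.67 and 1.97 on untreated β arrays. The δ minus β difference of the doxycycline effect was -0.65 for Krt6a (limma, adjusted p = 0.645), the lowest of the 46 keratins. No keratin passed for that difference, against 0.00526% of all genes, and 8 keratins had an unadjusted p under 0.05, which 7.6% of all genes had. Of these, 2 were above 0 (3.24% of all genes) and 6 below (4.36% of all genes).

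The other keratins that did not pass for doxycycline ranged from -1.15 (Krt23) to 0.79 (Krt28) in the δ line and from -0.98 (Krt19) to 0.96 (Krt20) in the β line. Krt28, a root sheath keratin, was well above background on all treated and on no untreated arrays. The lowest signal well above background was itself lower on the treated arrays, at -5.99 to -5.66, than on the untreated ones, at -5.37 to -5.20, so no fold is given. Treated and untreated arrays did not overlap for 25 keratins (54.3%) in each line, where 58.1% of all genes did not in the δ line and 46.9% in the β line. The keratin medians were -0.04 in the δ line and 0.07 in the β line, against 0.00 and 0.03 over all genes. Between replicates, 11 keratins lay more than 0.5 apart in the untreated δ line, 1 in the treated δ line, 4 in the treated β line and 7 in the untreated β line, so differences of that size are within what 2 arrays of 1 group can show.

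**Figure D5:**
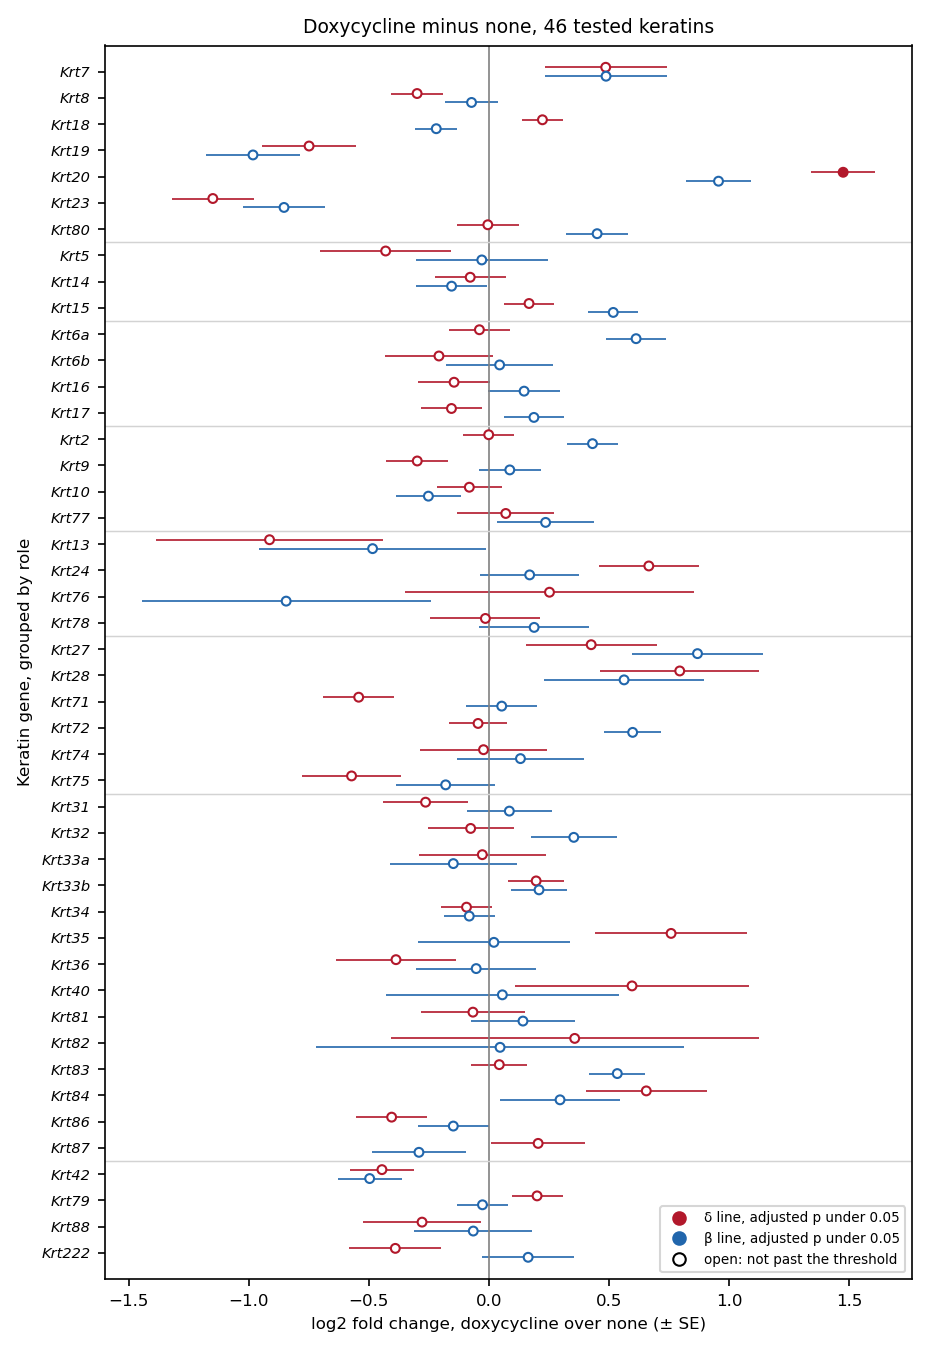
Log2 fold change of doxycycline over none for the 46 tested keratins, grouped by role from simple epithelial keratins at the top, in the δ and the β line; bars are standard errors of the limma fit and filled points have an adjusted p under 0.05. Krt20 in the δ line, at 1.48, is the only filled point, and Krt23 and Krt19 lie to the left in both lines.

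Proteins that anchor keratins to desmosomes and hemidesmosomes were compared in the same way. Of 22 such genes 19 were tested. Without doxycycline 1 was higher and 5 were lower in the δ line, and with it 0 were higher and 6 lower, with medians of -0.08 and -0.22. Of all genes, 7.84% were higher and 5.33% lower without doxycycline, and 9.83% and 5.49% with it. The 5 include Tchh and Pkp3, whose untreated δ signal was dim as given below. That count is therefore not read against the 5.33%. Eppk1, the keratin-binding plakin epiplakin, stood at -0.97 and -1.16 on the untreated δ arrays and at 0.31 and 0.39 on the untreated β arrays, and was lower in the δ line, with log2 differences of -1.42 without and -1.52 with doxycycline (limma, adjusted p = 0.00068 and 0.00064). Pkp3, a desmosomal plaque protein, had differences of -1.18 and -1.37, both past the threshold, and was well above background on 1 of the 2 untreated δ arrays. The desmosomal plaque protein Pkp1 was lower by a like amount in both states, at -0.61 and -0.60. Itgb4, the hemidesmosome integrin, was higher without doxycycline (0.90, adjusted p = 0.0316). The untreated calls held under 18 of 18 alternatives for Eppk1, 14 of 17 for Pkp3, 5 of 17 for Pkp1 and 11 of 18 for Itgb4. Tchh, trichohyalin of the hair root sheath, was called lower in both states but was not well above background on the untreated δ arrays. Its untreated call therefore supports nothing. For doxycycline, 0 of the 19 passed in either line by limma. In the δ line 1 was higher and 3 lower at an unadjusted p under 0.05, and in the β line 3 and 4. Of all genes, 18.2% had such a p in the β line, and the share in the δ line is not given here. Evpl, envoplakin of the cornified envelope, was lower over the mean of both lines (-0.75, limma adjusted p = 0.0224). It passed under 12 of 17 alternatives.

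Of 15 other intermediate filament genes 13 were tested, and in both line comparisons 2 were higher and 2 lower in the δ line, where 13.2% of all genes were called without and 15.3% with doxycycline. Prph, peripherin of peripheral neurons, stood at 3.03 and 2.88 on the untreated δ arrays and at 0.24 and -0.15 on the untreated β arrays, a difference of 2.91 (limma, adjusted p = 0.000193). Des, desmin of muscle, was higher (0.67), and Nes, nestin of progenitor cells, and Lmna, lamin A of the nuclear lamina, were lower (-0.72 and -0.51). Vim, vimentin of mesenchymal cells, stood between 7.46 and 7.83 on all 8 arrays. For doxycycline only Bfsp2, a lens filament gene, passed, over the mean of both lines (0.70, past the threshold under 8 of 17 alternatives). Lmnb1, lamin B1, had the widest values of the list, 5.88 for doxycycline in the δ line and -5.71 between untreated lines, and neither passed. They rest on the first untreated δ array, at -6.85 against 3.19 on its partner, and were 0.86 and -0.69 without it.

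Of 23 transcription regulators of keratin genes 19 were tested. In each line comparison 1 was higher and 1 lower in the δ line, and 13.2% of all genes were called without and 15.3% with doxycycline. Sox9, a regulator of hair follicle stem cells and many epithelia, stood at -1.21 and -1.44 on the untreated δ arrays and at -2.99 and -2.99 on the untreated β arrays, a difference of 1.67 (limma, adjusted p = 0.000888), and of 1.64 with doxycycline. Pitx1, a homeodomain factor, was lower (-0.92 without and -0.73 with doxycycline). Trp63, the master regulator of stratified epithelium and of Krt14, stood at 2.19 and 1.78 on the untreated δ arrays and at 1.64 and 1.70 on the untreated β arrays and did not pass. For doxycycline Sox9 alone passed, over the mean of both lines (0.58, adjusted p = 0.0398, past the threshold under 6 of 17 alternatives), while its line calls held under 18 of 18.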

How the data were processed

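RNA of 8 samples was labelled with 1 dye and hybridised to Agilent SurePrint G3 mouse expression arrays. The deposited files are scanner output: per the file headers, Feature Extraction 11.5.1.1 made the background-corrected spot intensity, and the submitters' processing notes name version 11.5.11. The mean log2 intensity over unflagged spots of a probe was taken from the deposited values, minus the 75th percentile of the array. Probes were named through their accession and RefSeq genes of GRCm38.p6 (32994 of 56605 probes). The brightest probe stood for a gene. Group means were fitted in limma 3.58.1 (R 4.3.3) over 19023 genes and all 8 arrays (4 residual degrees of freedom), with Benjamini-Hochberg adjustment over all genes and a threshold of 0.05. On simulated δ line data for 19023 genes, 63% of genes changed by 1 log2 unit and 94% of those changed by 2 were recovered, with 10 false calls. The simulated noise was normal with the fitted spread of each gene and held no deviant array. More genes were changed in it than the 14 called for doxycycline in the measured δ line. These rates may therefore not hold for the measured data. Between 39512 and 45080 probes were well above background per array, no probe was saturated, and the number of arrays limits the precision. Per-array values are given for Krt20, the thymic layer keratins, keratins past the threshold and those with the largest differences. The members, gene lists and named genes were chosen with earlier results of these data known. Alternatives were background correction, scaling, filter, probe choice, prior variance, replicate block, the arrays fitted, deviant tiles and leaving out each array. Replicate numbers follow accession order, and the labels give no pairing.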

Additional observations from a re-analysis of the deposited data

How the results depend on the processing

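Of the alternatives to each value, 937 kept direction and side of the threshold, 65 lost a call, 18 gained one and 11 turned direction, none of these a called value. Krt14 kept its line calls under all 17 alternatives it could be run in, and Krt8, Krt15, Krt19 and Krt42 under all 18. The turned values were near 0. With normexp they were 0.010 for Krt14 with doxycycline in the δ line, and -0.029 for Krt34 and -0.0076 for Krt35 between treated lines. Leaving out single arrays gave ranges across 0: -0.17 to 0.010 for Krt14 with doxycycline in the δ line, -0.055 to 0.12 for Krt34 between treated lines, -0.22 to 0.16 for Krt5 and -0.19 to 0.046 for Krt8 with doxycycline in the β line, and -0.27 to 0.12 for Krt5 between untreated lines.

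Counts of called keratins moved most for doxycycline. The count of 1 in the δ line was 0 with normexp, quantile normalization, median centring, no filter, a replicate block or only the arrays compared. That of 0 in the β line was 1 with probes detected on all arrays (331 of 16788 genes) or without deviant tiles (291 of 17243 genes). The mean count of 3 was 7 with no filter, where 2198 of 22883 genes passed. It was 5 with probes detected on all arrays, where 960 of 16788 genes did. Between the untreated lines 8 became 5 with only the arrays compared, where 709 of 19023 genes passed. With the replicate number as a block, the mean count was 0 and that between treated lines 6. Of 19023 genes, 1 and 1327 passed there. Same-numbered arrays did not deviate together (r = 0.02 and 0.08). The labels give no pairing, and with 2 arrays a group these values cannot show whether one exists. Leaving out single arrays gave 0 to 2 in the β line, 0 to 12 in the δ line, 0 to 13 for the mean, 0 to 6 for the difference between effects, 8 to 18 between untreated and 5 to 11 between treated lines. The highest of these counts came without untreated δ replicate 2 (12, 13, 6 and 18), which leaves that group only the array with deviant tiles. The lone array is then assumed to vary like the other groups, and the cause of these moves was not tested. Naming by a gene name column was not run, since the files used here hold none, and normexp used median signals in place of means.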

Other observations

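Padi3, which deiminates trichohyalin and hair keratins, fell with doxycycline in both lines. It stood at 0.37 and 0.48 on treated and at 1.83 and 1.77 on untreated δ arrays, and at -0.28 and -0.46 on treated and at 0.74 and 0.94 on untreated β arrays. Its log2 fold change was -1.38 in the δ line and -1.21 in the β line (limma, adjusted p = 0.0397 and 0.0403), and it was higher in the δ line by 0.96 without and 0.80 with doxycycline. Each doxycycline call of Padi3 held under 8 of 18 alternatives (adjusted p 0.00264 to 0.391 in the δ line and 0.0146 to 0.221 in the β line), always with a value below 0. Piezo2, the touch channel of Merkel cells, was higher in the δ line by 1.75 without and by 2.05 with doxycycline, at -1.85 and -2.07 on the untreated δ arrays and -3.68 and -3.74 on the untreated β arrays. Prss16, a thymus-specific protease of cortical epithelium, was lower in the δ line, with log2 differences of -1.23 without and -0.87 with doxycycline (adjusted p = 0.0149 and 0.0434, past the threshold under 16 and 8 of 18 alternatives).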
